A study of Mus musculus with 18 samples.

Results

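The CPEB family was followed through every probe set that the array carries for Cpeb1, Cpeb2, Cpeb3 and Cpeb4. These 4 genes, of 17097 genes named by probe sets of a single symbol, have 10 of the 45141 probe sets, 1 for Cpeb1 and 3 for each of the others, and all 10 were kept whatever their signal. Probe sets are named by their number, without the shared ending _PM_at. The study took cortex and striatum, dissected together, from mice aged 6 weeks, 3 control mice (labelled CTRL) and 3 mice of the TgCPEB4∆4 genotype, a line known to express, from a transgene, a form of CPEB4 that lacks a neuronal microexon. Each mouse gave 3 arrays. One held total RNA, 1 the RNA that a poly(U) column released at 25% formamide, enriched for short poly(A) tails, and 1 the RNA released at 90% formamide, enriched for long tails. They are named total RNA, short-tail fraction and long-tail fraction here. The sources used here do not give the promoter of the transgene, the strain or the sex of the mice.

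CPEB proteins bind cytoplasmic polyadenylation elements, short U-rich sequences in the 3' untranslated region of an mRNA. Bound CPEB can hold the tail short and the mRNA silent, or recruit the poly(A) polymerase GLD2 to lengthen the tail and start translation. CPEB1 is the founding member, first known from oocytes, whereas CPEB2, CPEB3 and CPEB4 form a closer subgroup with nearly alike RNA-binding domains. In neurons the family is known for translation near synapses. The transcripts of the 4 genes are mRNAs with tails of their own, and the fractions report on those tails as far as a probe set reads these mRNAs. The array's annotation gives the probe sets of Cpeb1 and Cpeb4 a RefSeq mRNA. Each probe set of Cpeb2 and Cpeb3 has a different accession, none of them a RefSeq mRNA.

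Values are log2 expression as deposited. An equal mass of RNA was amplified from every preparation and the arrays were normalized, so a value stands for a transcript's share within its preparation, and a difference between preparations of 1 mouse for the log2 ratio of those shares, not for an amount of RNA. In tissue RNA, fewer cells of a type and less RNA per cell cannot be told apart. Array medians lay between 6.42 and 6.59. Of 37 measured markers of brain cell types, neighbouring tissue and inflammation, 27 exceeded the brightest nonspecific control probe set on all 6 total RNA arrays, among them markers of neurons (3 of 3), striatal neurons (3 of 4) and astrocytes (4 of 4), and of the cerebellum 0 of 2. Of 3 choroid plexus markers 1 did so, Ttr, which stood between 8.81 and 12.05. The others, Kl (5.5 to 6.07) and Folr1 (5.29 to 5.86), exceeded that control on 0 of 6 arrays. The summed level of 3 inflammation markers (Lcn2, Serpina3n and C4b) was 12.90 in transgenic mouse 1 and 10.37 in transgenic mouse 2, against 8.33 in transgenic mouse 3 and 8.19 to 8.27 in control mice. The long-tail array of control mouse 1 stood apart, with an SD over probe sets of 1.70 against 1.77 to 1.91 on the other long-tail arrays, and a brightest nonspecific control of 7.30 against 5.53 to 6.29. That control lay between 7.07 and 7.52 on total RNA arrays and between 5.43 and 6.03 on short-tail arrays. A probe set under it is not necessarily silent, but its value is not an exact level and its differences are not exact either. All 10 Cpeb probe sets stood above the median nonspecific control on all 18 arrays.

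Between total RNA and the short-tail fraction 6 of the family's 10 probe sets passed in control mice and 5 in transgenic mice, in both directions, and between total RNA and the long-tail fraction 2 and 0 passed. In control mice 4 of 10 were higher and 2 lower in the short-tail fraction than in total RNA (limma on within-mouse differences, adjusted p under 0.05), on an array where 42.5% of all probe sets passed, 22.5% higher and 20.0% lower. In transgenic mice 3 were higher and 2 lower, against 42.4% of all, 22.7% higher and 19.7% lower. The counts of 6 and 5 fell to 2 and 2 with the mouse as a random block, where 16.8% and 18.3% of all probe sets passed. With no replicate block they fell to 1 and 2, where 13.1% and 14.3% of all did. The family's counts rose with the arrays quantile-normalized again (35.3% and 34.7% of all) or centred on their medians (42% and 43.1%). The long-tail fraction gave 0 higher and 2 lower in control mice, where 9.85% of all passed, 3.48% higher and 6.37% lower, and 0 in transgenic mice, where 0.144% did. Control mouse 1 had the lowest long-tail value relative to total RNA among the control mice for 7 of the 10 probe sets, and the spread in the test is shared by both genotypes. Between the fractions themselves, 1 was higher and 6 were lower in the long-tail than in the short-tail fraction of control mice, where 54.9% of all passed, 31.0% higher and 23.9% lower. In transgenic mice 0 were higher and 3 lower, where 24.9% of all passed, 11.8% higher and 13.1% lower. The counts rest on 10 probe sets, 9 of which share a gene with another, and they set no family pattern apart from other transcripts. The comparisons share arrays: both fractions were set against the same total RNA. The median difference of the 10 probe sets in control mice was 0.21 in the short-tail fraction, where that of all probe sets was -0.02, and -0.21 in the long-tail fraction, where that of all was 0.09.

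**Figure D1:**
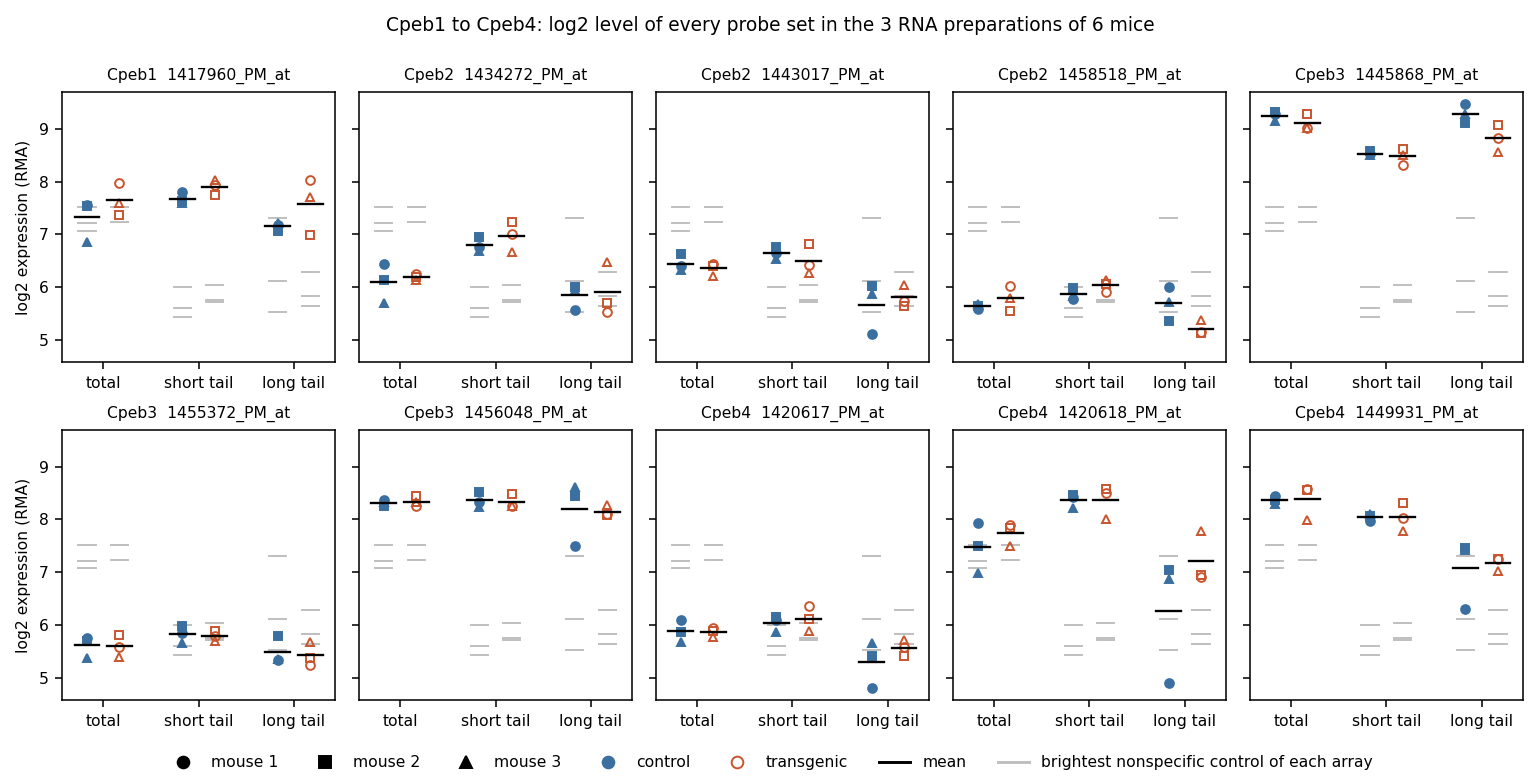
Log2 expression (vertical axis) of each Cpeb probe set in total RNA, the short-tail and the long-tail fraction (horizontal axis) of 3 control (filled) and 3 transgenic mice (open); symbols mark mice, black bars means and grey bars the brightest nonspecific control of each array. Cpeb4 1420618 and Cpeb2 1434272 are highest in the short-tail fraction, Cpeb3 1445868 is lowest there, and Cpeb4 1449931 is highest in total RNA; the lowest long-tail value of Cpeb4 1420618, 4.90, is that of control mouse 1.

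Cpeb4, whose altered form the transgene encodes, gave opposite answers for the short-tail fraction from its different probe sets, although the array's annotation gives all 3 the same RefSeq accession. Probe set 1420618 was higher in the short-tail fraction than in total RNA, and probe set 1449931 was lower. By 1420618, control mice 1, 2 and 3 read 7.94, 7.49 and 6.99 in total RNA, 8.42, 8.46 and 8.22 in the short-tail fraction and 4.90, 7.04 and 6.87 in the long-tail fraction. Transgenic mice read 7.89, 7.84 and 7.49 in total RNA, 8.50, 8.58 and 8.01 in the short-tail fraction and 6.90, 6.95 and 7.78 in the long-tail fraction. The short-tail fraction thus lay highest in all 6 mice, and the 4.90 of control mouse 1 lay far below every other value. The short-tail fraction exceeded total RNA of the same mouse by 0.47, 0.97 and 1.24 in control mice, a mean of 0.90 ± 0.12 (SE; 1.86-fold; adjusted p = 0.000584, limma), and by 0.60, 0.74 and 0.52 in transgenic mice, a mean of 0.62 ± 0.12 (SE; 1.54-fold; adjusted p = 0.00393, limma). The call ended where the mouse was not held as a fixed pair (adjusted p = 0.155 and 0.324 with the mouse as a random block). The long-tail fraction stood at -3.04, -0.45 and -0.11 relative to total RNA in control mice and at -0.99, -0.90 and 0.30 in transgenic mice, and did not pass in either (adjusted p = 0.18 and 0.729, limma).

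By 1449931, Cpeb4 was highest in total RNA and lower in both fractions. Control mice 1, 2 and 3 read 8.44, 8.36 and 8.30 in total RNA, 7.97, 8.06 and 8.11 in the short-tail fraction and 6.31, 7.46 and 7.43 in the long-tail fraction. Transgenic mice read 8.58, 8.55 and 7.99, then 8.02, 8.32 and 7.79, then 7.25, 7.25 and 7.02 in the same order of preparations. In each of the 6 mice the order was total RNA, short-tail, long-tail. The short-tail fraction differed from total RNA by -0.32 ± 0.09 in control and -0.33 ± 0.09 in transgenic mice (SE; adjusted p = 0.017 and 0.0156, limma). Without control mouse 1 or 2 the control value did not pass (-0.25 and -0.33, adjusted p = 0.109 and 0.0636), nor did the transgenic value without transgenic mouse 1 (-0.22, adjusted p = 0.0966). Neither passed with the mouse as a random block (adjusted p = 0.334 and 0.325). The long-tail fraction differed from total RNA by -2.13, -0.90 and -0.87 in control mice, a mean of -1.30 ± 0.25 (SE; adjusted p = 0.0263, limma), and by -1.33, -1.30 and -0.97 in transgenic mice, a mean of -1.20 ± 0.25 (SE; adjusted p = 0.11, limma). With each genotype's own spread, an alternative chosen after the data were seen, the transgenic value passed and the control value did not (adjusted p = 0.0231 and 0.137). Leaving out control mouse 3 also ended the control call, as did leaving out either of transgenic mice 1 and 2 (adjusted p = 0.099, 0.0616 and 0.0643). It read -0.89 without control mouse 1 and passed.

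The third Cpeb4 probe set, 1420617, had a low signal, between 4.80 and 6.35 on all arrays, and exceeded the brightest nonspecific control on 5 of 18. Its short-tail fraction exceeded total RNA by 0.00, 0.28 and 0.19 in control mice (mean 0.16 ± 0.08, SE; adjusted p = 0.151, limma) and by 0.41, 0.23 and 0.11 in transgenic mice (mean 0.25 ± 0.08, SE; adjusted p = 0.0359, limma). The transgenic call ended under 6 of 12 alternatives, among them without transgenic mouse 1, transgenic mouse 2 or control mouse 3 (0.17, 0.26 and 0.25, adjusted p = 0.192, 0.104 and 0.0534), and the difference between the genotypes was 0.09 ± 0.12 (SE; adjusted p = 0.976, limma). Its long-tail fraction lay below total RNA in all 6 mice, with differences of -1.28, -0.46 and -0.03 in control mice and -0.36, -0.48 and -0.05 in transgenic mice, and did not pass (adjusted p = 0.129 and 0.615, limma). Set directly against each other in control mice, the long-tail fraction was lower than the short-tail fraction by all 3 Cpeb4 probe sets, at -2.10 ± 0.46 for 1420618, -0.98 ± 0.20 for 1449931 and -0.75 ± 0.21 for 1420617 (SE; adjusted p = 0.00929, 0.00798 and 0.022, limma). Without control mouse 1 the first 2 were -1.39 and -0.64 and still passed, while 1420617 was -0.48 and did not, nor did it without control mouse 2 (-0.75; adjusted p = 0.0798 and 0.0528). In transgenic mice 1449931 was lower by the same test (-0.87 ± 0.20, adjusted p = 0.025), and lost the call whichever of the 3 transgenic mice was left out (adjusted p = 0.121, 0.165 and 0.0638) and with the arrays quantile-normalized again (adjusted p = 0.0949).

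Cpeb3, a translational repressor of glutamate receptor mRNAs in neurons, was lower in the short-tail fraction than in total RNA by its probe set with the highest mean value. By 1445868 control mice 1, 2 and 3 read 9.28, 9.31 and 9.14 in total RNA, 8.52, 8.57 and 8.51 in the short-tail fraction and 9.47, 9.11 and 9.28 in the long-tail fraction. Transgenic mice read 9.01, 9.29 and 9.02, then 8.32, 8.62 and 8.50, then 8.82, 9.08 and 8.56. The short-tail values did not overlap with those of total RNA in either genotype. The short-tail fraction differed from total RNA by -0.76, -0.73 and -0.64 in control mice, a mean of -0.71 ± 0.07 (SE; 1.64-fold; adjusted p = 8.93e-05, limma), and by -0.69, -0.68 and -0.52 in transgenic mice, a mean of -0.63 ± 0.07 (SE; 1.55-fold; adjusted p = 0.00017, limma). Both passed under all 14 alternatives. The long-tail fraction differed from total RNA by 0.04 ± 0.12 in control mice, with an unadjusted 95% interval of -0.23 to 0.31, and by -0.29 ± 0.12 in transgenic mice, with an interval of -0.56 to -0.01 (SE; adjusted p = 0.818 and 0.328, limma). Set against the short-tail fraction, the long-tail fraction was higher by 0.95, 0.54 and 0.77 in control mice, a mean of 0.75 ± 0.13 that passed under all 14 alternatives (SE; adjusted p = 0.00391, limma). It was higher by 0.50, 0.47 and 0.06 in transgenic mice, a mean of 0.34 ± 0.13 that did not pass (SE; adjusted p = 0.0849, limma).

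The other Cpeb3 probe sets did not show that decrease. Probe set 1456048, which exceeded the brightest nonspecific control on all 18 arrays, read 8.36, 8.25 and 8.34 in total RNA and 8.33, 8.53 and 8.23 in the short-tail fraction of control mice, and 8.26, 8.44 and 8.33 against 8.25, 8.48 and 8.26 in transgenic mice. The values of the preparations overlapped, with mean differences of 0.05 ± 0.08 and -0.02 ± 0.08 (SE; adjusted p = 0.671 and 0.891, limma), and the sign in control mice turned when arrays were quantile-normalized again (-0.12). In the long-tail fraction control mice read 7.50, 8.44 and 8.62 and transgenic mice 8.10, 8.08 and 8.28, the lowest again in control mouse 1. Probe set 1455372 was dim, between 5.24 and 5.97, and over the brightest nonspecific control on 6 of 18 arrays. It was slightly higher in the short-tail fraction in all 6 mice, by 0.09, 0.28 and 0.27 in control mice (mean 0.21 ± 0.07, SE; adjusted p = 0.0408, limma) and by 0.20, 0.09 and 0.29 in transgenic mice (mean 0.19 ± 0.07, SE; adjusted p = 0.0553, limma). The control call ended without control mouse 2 or 3 (adjusted p = 0.18 and 0.186), with the mouse as a random block or with no replicate block (adjusted p = 0.317 and 0.372), and with a trended and robust prior (adjusted p = 0.0515).

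Cpeb2, which is known to restrain translation elongation of Hif1a mRNA, was higher in the short-tail fraction than in total RNA by 1 of its 3 probe sets. By 1434272 control mice 1, 2 and 3 read 6.43, 6.14 and 5.70 in total RNA, 6.75, 6.94 and 6.68 in the short-tail fraction and 5.57, 5.99 and 5.95 in the long-tail fraction. Transgenic mice read 6.25, 6.19 and 6.14, then 7.00, 7.23 and 6.67, then 5.53, 5.69 and 6.47. The short-tail values lay above those of total RNA in every mouse, without overlap. The difference from total RNA was 0.32, 0.81 and 0.98 in control mice, a mean of 0.70 ± 0.13 (SE; adjusted p = 0.00257, limma), and 0.76, 1.04 and 0.53 in transgenic mice, a mean of 0.78 ± 0.13 (SE; adjusted p = 0.00158, limma). On total RNA arrays this probe set exceeded the brightest nonspecific control in 0 of 6 mice and on short-tail arrays in 6 of 6, so the size is not exact. The long-tail fraction did not differ detectably from total RNA (-0.25 ± 0.26 and -0.29 ± 0.26, SE; adjusted p = 0.505 and 0.672, limma).

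The other Cpeb2 probe sets did not pass in the short-tail fraction. For 1443017 it differed from total RNA by 0.25, 0.14 and 0.21 in control mice and by -0.03, 0.42 and 0.05 in transgenic mice. For 1458518 the differences were 0.20, 0.34 and 0.15 in control mice and -0.11, 0.51 and 0.34 in transgenic mice. None of these means passed (adjusted p from 0.0962 to 0.223, limma). With the arrays quantile-normalized again, however, 1443017 and 1458518 both passed as higher in control mice (0.26 and 0.34, adjusted p = 0.0373 and 0.0332, limma). In transgenic mice 1458518 passed with that normalization and with median centring (0.34 and 0.31, adjusted p = 0.035 and 0.0442, limma). In the long-tail fraction 1443017 was lower than total RNA in all 6 mice, with differences of -1.28, -0.60 and -0.45 in control mice (mean -0.78 ± 0.19, SE; adjusted p = 0.0483, limma) and -0.71, -0.76 and -0.17 in transgenic mice (mean -0.54 ± 0.19, SE; adjusted p = 0.267, limma). The control call ended whichever of the 6 mice was left out, with values from -0.94 to -0.52. On total RNA arrays 1443017 exceeded the brightest nonspecific control in 0 of 6 mice and on long-tail arrays in 2 of 6, so the size is not exact. By 1458518 the long-tail fraction differed from total RNA by 0.41, -0.29 and 0.04 in control mice and by -0.88, -0.43 and -0.41 in transgenic mice, so that transgenic mice all lay below 0 and control mice on both sides of it. That probe set was dim (5.12 to 6.13), and on long-tail arrays above the brightest nonspecific control in 0 of 6 mice. The long-tail fraction differed from the short-tail fraction by -0.96 ± 0.25 for 1434272 and -0.98 ± 0.22 for 1443017 in control mice (SE; adjusted p = 0.0184 and 0.0108, limma), and by -1.07 ± 0.25 for 1434272 and -0.82 ± 0.16 for 1458518 in transgenic mice (SE; adjusted p = 0.0258 and 0.0141, limma). The control value of 1434272 lost its call without control mouse 1 (-0.85, adjusted p = 0.0617). Both transgenic values lost theirs without transgenic mouse 1 or 2 (adjusted p from 0.0929 to 0.174).

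Cpeb1, the founding member, has 1 probe set on the array, 1417960. Control mice 1, 2 and 3 read 7.56, 7.53 and 6.86 in total RNA, 7.80, 7.63 and 7.59 in the short-tail fraction and 7.17, 7.07 and 7.21 in the long-tail fraction. Transgenic mice read 7.97, 7.36 and 7.60, then 7.94, 7.74 and 8.02, then 8.02, 6.98 and 7.70. The short-tail fraction was higher than total RNA in 5 of 6 mice, by 0.24, 0.10 and 0.73 in control mice (mean 0.36 ± 0.13, SE; adjusted p = 0.0478, limma) and by -0.03, 0.39 and 0.42 in transgenic mice (mean 0.26 ± 0.13, SE; adjusted p = 0.13, limma). Control mouse 3 stood apart: its 0.73 came with a total RNA value of 6.86, below the brightest nonspecific control. Without that mouse the mean was 0.17 and the call ended (adjusted p = 0.336), as it also did without control mouse 1 or transgenic mouse 2, or with the arrays quantile-normalized again (adjusted p = 0.0851, 0.0635 and 0.112). It ended too with the mouse as a random block or with no replicate block (adjusted p = 0.252 and 0.319). The long-tail fraction lay on both sides of total RNA in both genotypes, with means of -0.16 ± 0.18 and -0.07 ± 0.18 (SE; adjusted p = 0.539 and 0.902, limma). It differed from the short-tail fraction by -0.63, -0.56 and -0.38 in control mice, a mean of -0.52 ± 0.16 that passed (SE; adjusted p = 0.0272, limma) but failed whichever of those mice was left out (adjusted p = 0.0842, 0.073 and 0.0627). In transgenic mice the mean was -0.33 ± 0.16 (SE; adjusted p = 0.148, limma).

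**Figure D2:**
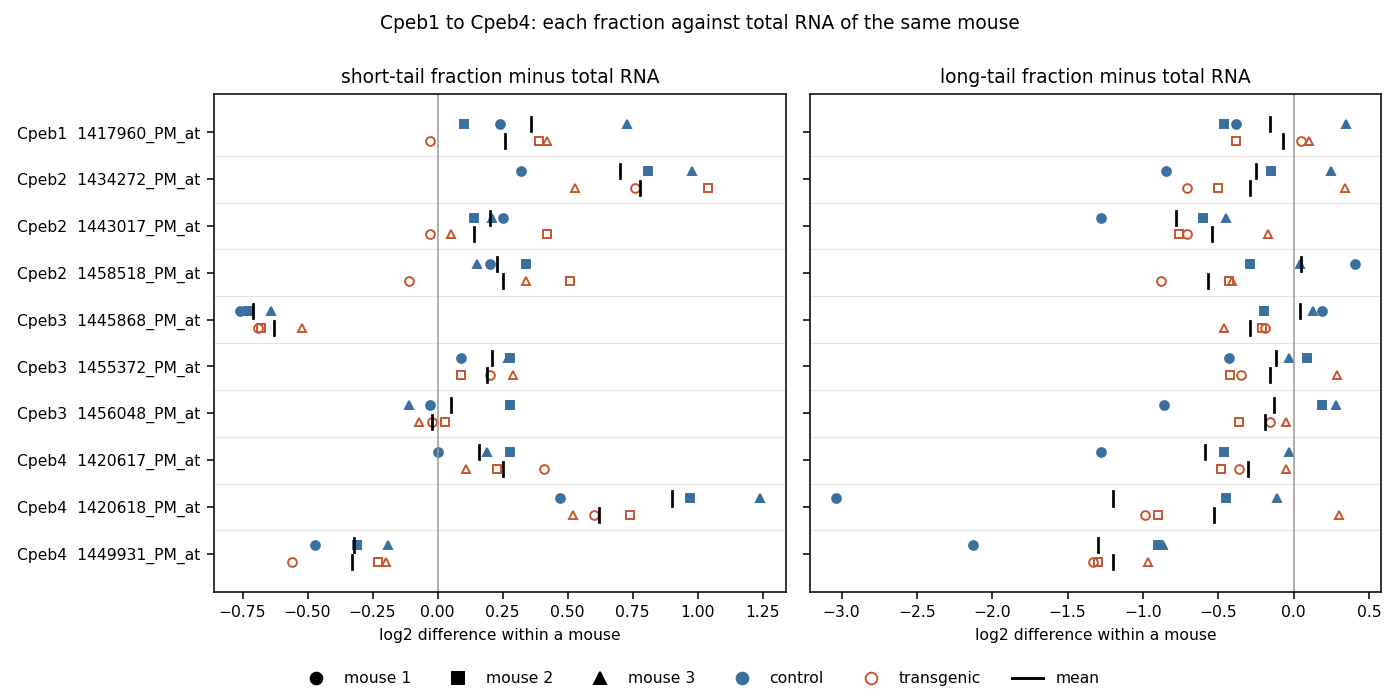
Log2 difference within a mouse (horizontal axis) of the short-tail fraction (left) and the long-tail fraction (right) from total RNA for each Cpeb probe set (rows), in 3 control (filled) and 3 transgenic mice (open); black bars are means and the panels have different scales. Cpeb3 1445868 and Cpeb4 1449931 lie below 0 in the short-tail panel in all 6 mice and Cpeb2 1434272 and Cpeb4 1420618 above 0, and control mouse 1 gives the lowest long-tail values of Cpeb4, down to -3.04.

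Whether probe sets of 1 gene gave unlike shifts was tested directly, by subtracting the shift of 1 probe set from that of another within each mouse and flipping signs over the 6 mice. There were 9 pairs and 3 differences between preparations, or 27 exact two-sided tests, each with a smallest possible p of 0.03125. In 12 of the 27 all 6 mice lay on 1 side of 0 and p was the smallest possible, but the adjusted p was 0.0703 and 0 passed. At that smallest p a pair could pass only if more of the 27 tests had reached it, however large its difference. The count of 0 thus does not show that the shifts were alike. For the short-tail fraction against total RNA, 8 of the 9 pairs had all 6 mice on 1 side of 0. The Cpeb4 pair 1420618 and 1449931 differed by 1.08 ± 0.26 (SD, n = 6), from 0.72 to 1.43 over the mice. The Cpeb3 pair 1445868 and 1455372 differed by -0.87 ± 0.09, from -1.01 to -0.77, and the pair 1445868 and 1456048 by -0.69 ± 0.19, from -1.01 to -0.45 (SD, n = 6). The Cpeb2 pair 1434272 and 1443017 differed by 0.57 ± 0.27, from 0.07 to 0.79 (SD, n = 6). The Cpeb2 pair 1443017 and 1458518 was the exception, with 3 mice on either side of 0 and a mean of -0.06 ± 0.15 (SD, n = 6; exact p = 0.375, adjusted p = 0.44). For the long-tail fraction against total RNA only the Cpeb4 pair 1420617 and 1449931 had all mice on 1 side (0.81 ± 0.19, SD, n = 6). The array has Actb probe sets at the 3' and the 5' end of that mRNA. Their 3' minus 5' log2 value was -0.94 to -0.75 in total RNA, -0.66 to -0.47 in the short-tail fraction and -1.08 to -0.66 in the long-tail fraction, where control mouse 1 was lowest. The long-tail range thus overlapped that of total RNA, and the short-tail range did not. For Gapdh total RNA (-0.23 to -0.13) and the short-tail fraction (-0.21 to -0.12) overlapped. Gapdh gave 0.15 on the long-tail array of control mouse 1 and -0.18 to -0.12 on the other long-tail arrays. The part of these end differences in the probe set pairs was not tested. RefSeq of assembly GRCm38.p6 lists 16 transcripts for Cpeb1, 8 for Cpeb2, 20 for Cpeb3 and 4 for Cpeb4. The sources used here do not say which of them each probe set reads.

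**Figure D3:**
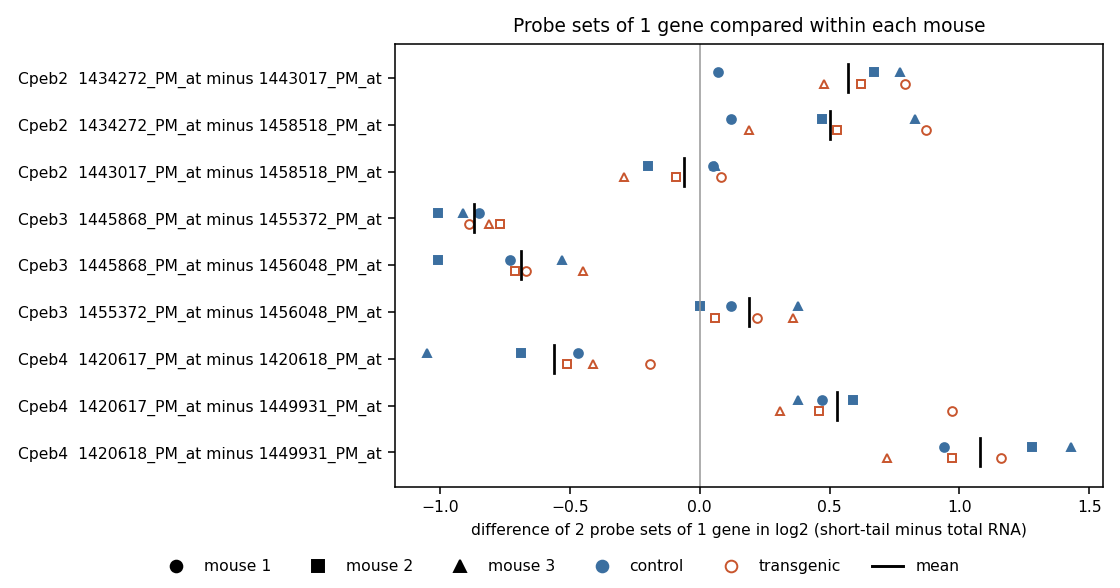
Difference between 2 probe sets of 1 gene in their log2 short-tail minus total RNA shift (horizontal axis) for the 9 pairs (rows), 1 symbol per mouse, control filled and transgenic open, black bars the mean of 6 mice. In 8 pairs all 6 mice lie on 1 side of 0, and the Cpeb4 pair 1420618 and 1449931 lies furthest from it, at 1.08.

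Between the genotypes no Cpeb probe set passed in any preparation or in any difference between preparations. Of 60 values tested 0 passed (lowest adjusted p = 0.319, limma) and 4 had an unadjusted p under 0.05. Over the same 6 comparisons 10.2% of all values on the array had an unadjusted p under 0.05, and 0 of 45037 probe sets passed in total RNA, in either fraction or in the genotype difference of any shift. In total RNA the transgenic minus control difference of Cpeb4 was 0.01 ± 0.16 for 1449931, with a 95% interval of -0.37 to 0.38, 0.27 ± 0.24 for 1420618, with an interval of -0.28 to 0.83, and -0.01 ± 0.12 for 1420617 (SE; adjusted p = 0.99, 0.663 and 0.976, limma). These probe sets do not check the genotype labels, since the sources used here do not say whether transgene RNA holds the stretches they match. In the long-tail fraction 1420618 differed by 0.94 ± 0.59, with an interval of -0.48 to 2.37, and by 0.26 without control mouse 1 (SE; adjusted p = 0.423 and 0.772, limma). The genotypes overlapped in 29 of 30 combinations of probe set and preparation. The exception was Cpeb3 1445868 in the long-tail fraction, where transgenic mice read 8.82, 9.08 and 8.56 and control mice 9.47, 9.11 and 9.28. Its difference of -0.46 ± 0.17 had an unadjusted p = 0.032 and did not pass (SE; adjusted p = 0.357, limma), and 23.1% of all probe sets did not overlap there, 23.4% in the short-tail fraction and 18% in total RNA. The other 3 values with an unadjusted p under 0.05 belonged to the dim Cpeb2 1458518, all in the long-tail fraction (-0.47 ± 0.18 for its level, -0.63 ± 0.23 against total RNA and -0.64 ± 0.22 against the short-tail fraction; SE; adjusted p = 0.357, 0.801 and 0.496, limma). Without control mouse 2 the last of these was -0.87 and passed (adjusted p = 0.0487), as did 1450 of 45037 probe sets in that comparison without that mouse.

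The mean level of Cpeb1 was higher in transgenic than in control mice by 0.33 ± 0.23 in total RNA, 0.23 ± 0.10 in the short-tail fraction and 0.42 ± 0.26 in the long-tail fraction (SE), and none passed (adjusted p = 0.595, 0.319 and 0.423, limma). The 3 preparations come from the same mice. Transgenic mouse 1, in which the inflammation markers were highest, had the highest Cpeb1 value in total RNA (7.97) and in the long-tail fraction (8.02), and their part in these values was not tested.

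Over the 18 arrays the genes whose log2 values ran most alike with the highest-mean probe set of each Cpeb gene were Usp24, Dgcr8 and Ctps2 for Cpeb1 (Pearson r = 0.91, 0.905 and 0.885), Ankib1, Wee1 and Ssbp2 for Cpeb2 (0.967, 0.961 and 0.958), Dtna, Kcnq1ot1 and Map1b for Cpeb3 (0.957, 0.956 and 0.951) and Zfp266, Cul3 and Taok1 for Cpeb4 (0.954, 0.95 and 0.947). The 18 arrays share 6 mice and 3 preparations, so these values describe a like pattern over preparations.

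Of 39 genes listed around the family, 34 were measured, each by its 1-gene probe set with the highest mean. Other probe sets of these genes were not examined, so a rise or fall below is that of 1 probe set. In the short-tail fraction against total RNA, 22 of the 34 passed in control mice and 16 in transgenic mice. These are 64.7% and 47.1%, beside 42.5% and 42.4% of all probe sets. Of probe sets above the 60th percentile of the mean, nearer in level to most of these, 55.9% and 52.4% passed. Those shares come from a test adjusted over the 18015 filtered probe sets alone, and some listed genes have a lower mean. They are a rough guide, and no difference from them was tested. Of the 22 and 16 genes, 9 and 10 also passed without each of the 6 mice in turn. Values are given for those 9 and 10 genes, unless another basis is named.

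Among the machinery that CPEB recruits for polyadenylation, 5 of 9 genes rose in the short-tail fraction of control mice and 0 fell, with a median of 0.20 against -0.02 for all probe sets, of which 22.5% rose and 20.0% fell. In transgenic mice 3 of 9 rose and 0 fell, with a median of 0.16 against -0.01, and 22.7% of all rose and 19.7% fell. Since each listed gene is read by its probe set with the highest mean, probe sets of high mean are the nearer comparison. Over probe sets above the 60th percentile the median was 0.15 in both genotypes. Of those that passed there, 72.6% were higher in control mice and 72.0% in transgenic mice. A lean upward was thus not particular to the machinery. In control mice the CPSF subunit Fip1l1 rose by 0.75 ± 0.09 and the endonuclease subunit Cpsf3 by 0.37 ± 0.06 (SE; adjusted p = 0.000217 and 0.00178, limma). In transgenic mice Fip1l1 rose by 0.65 ± 0.09 and the deadenylase Parn by 0.41 ± 0.09 (SE; adjusted p = 0.000484 and 0.00533, limma). The polymerase GLD2, encoded by Tent2, read 0.06 ± 0.09 and 0.11 ± 0.09 and passed in neither genotype (SE; adjusted p = 0.628 and 0.389, limma).

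Partners in translational repression went both ways. Of 8 measured of 11, 3 rose and 3 fell in the short-tail fraction of control mice, with a median of -0.06, and 3 rose and 0 fell in transgenic mice, with a median of 0.00. The genes that rose were in both genotypes Ngdn, which encodes the eIF4E- and CPEB-binding protein neuroguidin (0.90 and 0.65), Lsm14b (0.54 and 0.54) and Patl1 (0.54 and 0.56), the latter pair P-body proteins. The 3 that fell in control mice, Zar1, Ddx6 and Eif4e, each lost the call without at least 1 mouse. Of 3 genes that link CPEB to deadenylation, the CCR4-NOT deadenylase Cnot7 rose in both genotypes (0.71 and 0.70). Tob1, over the brightest nonspecific control on 0 of 18 arrays, fell in transgenic mice and lost that call whichever of the 6 mice was left out. Of 4 measured kinases that act on CPEB proteins, only Aurka passed, lower in control mice, and it lost the call in the same way. Beside the counts of these lists, 22.5% of all probe sets rose and 20.0% fell in control mice. In transgenic mice 22.7% of all rose and 19.7% fell. The medians of all were -0.02 and -0.01.

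The mRNAs known from the literature as bound by CPEB proteins also divided. Of 11 measured of 12, 4 rose and 5 fell in the short-tail fraction of control mice, with a median of -0.10, and 3 rose and 5 fell in transgenic mice, with a median of -0.02. Of all probe sets 22.5% rose and 20.0% fell in control mice, with a median of -0.02. In transgenic mice 22.7% of all rose and 19.7% fell, with a median of -0.01. The hypoxia factor Hif1a rose by 1.16 ± 0.13 in control and 0.84 ± 0.13 in transgenic mice (SE; adjusted p = 0.000228 and 0.00118, limma). Bdnf, the neurotrophin, rose by 0.47 ± 0.08 in transgenic mice (SE; adjusted p = 0.00155, limma). The NMDA receptor subunit Grin2a fell by 1.12 and 1.10 on the log2 scale, and the microtubule protein Map2 by 0.37 and 0.32 (adjusted p from 7.58e-05 to 0.0034, limma). Camk2a, the classical CPEB1 target, read -0.10 ± 0.06 and -0.02 ± 0.06 and passed in neither genotype (SE; adjusted p = 0.259 and 0.785, limma). Hif1a and Grin2a exceeded the brightest nonspecific control on 13 and 14 of 18 arrays.

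In the long-tail fraction against total RNA, Lsm14b rose (0.70) and Pum2 (-0.86) and Ngdn (-1.02) fell in control mice, of all 34 genes (adjusted p = 0.0369, 0.0392 and 0.0242, limma). These 3 are 8.8% of the 34 genes, beside 9.85% of all probe sets, 3.48% higher and 6.37% lower. Each of the 3 lost its call with each of at least 4 of the 6 mice left out. In transgenic mice 0 genes passed, where 0.144% of all probe sets did. Set against the short-tail fraction, the long-tail fraction was higher for 10 and lower for 10 of the 34 genes in control mice, where 54.9% of all probe sets passed, and higher for 1 and lower for 3 in transgenic mice, where 24.9% did. In control mice the machinery had 1 higher and 4 lower, the repression partners 3 and 2, the deadenylation genes 2 and 1, the kinases 2 and 0 and the bound mRNAs 3 and 3. The kinases were Plk1 (0.65 ± 0.16) and Camk2a (0.36 ± 0.09), a gene listed both as a kinase and as a bound mRNA (SE; adjusted p = 0.0137 and 0.012, limma). Camk2a lost the call without control mouse 3 (adjusted p = 0.0625), and Plk1, over the brightest nonspecific control on 7 of 18 arrays, with the arrays quantile-normalized again (adjusted p = 0.0501). Of the 20 calls in control mice 10 also passed without each of the 6 mice in turn, and of the 4 in transgenic mice 0 did. No listed gene passed a comparison between the genotypes.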

How the data were processed

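Single-colour Affymetrix arrays were made from 6 mice and 3 preparations each, 18 arrays in all. The authors deposited log2 expression values made by RMA, per the submitters' processing notes, with the version not stated. Probe sets were named from GEO's platform annotation: 28898 have 1 gene symbol, 551 several and 15588 no entry. Of 45141 probe sets 104 controls were left out and 45037 tested, with no filter on low signal.

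Log2 values of the preparations were subtracted within each mouse and tested with limma 3.58.1 (R 4.3.3), 2-sided, all 6 mice sharing 1 spread, adjusted by Benjamini-Hochberg over the whole array, threshold 0.05. Genotypes were compared within each preparation by the same tool. Probe sets of 1 gene were compared by an exact sign-flip test over mice, and levels of different probe sets were not compared. By the labels the 3 preparations of a number come from 1 mouse, and arrays of 1 mouse had deviations from their group means that correlated at -0.281 to 0.697. P-values measure the spread between these mice. The files hold no detection flags, so each array's brightest nonspecific control probe set served as a mark of low signal. The number of arrays limits the precision. The scripts were tested on simulated data. Every Cpeb probe set is named, and the pathway lists were represented by 1 probe set a gene; the genes most alike were the 3 with the highest correlation. Members and lists were chosen with earlier results of these data known. Alternatives covered filters on low signal, normalization, the variance model, the pairing and each mouse left out; the spread of the own genotype alone was added after seeing the data. No sequences are printed.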

Additional observations from a re-analysis of the deposited data

How the results depend on the processing

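The counts of called Cpeb probe sets moved with the treatment of the mouse, with the filter and with single mice. The share of all probe sets called moved in many of these settings too. Long-tail against total RNA in control mice gave 2 calls, and 1 with the 60th percentile filter, with quantile normalization again or with median centring, 4 with the mouse as a random block, 0 with the spread of the own genotype alone (added after seeing the data), and 0 to 1 with 1 mouse left out. Of all probe sets 9.85% passed there, and 24.4%, 9.59%, 8.83%, 28.5% and 0% in these settings in turn. With 1 mouse left out the share was 0.00444% to 14.3%. In transgenic mice long-tail against total RNA gave 0, and 2 with no replicate block, 2 with the random block, 1 with the own spread and 0 to 1 with 1 mouse left out. The 1 call came without control mouse 1 (Cpeb4 1449931, adjusted p = 0.0161, limma). Of all probe sets 0.144% passed there. The share was 3.2% with no replicate block, 4.88% with the random block, 3.52% with the own spread and 2.4% without control mouse 1. Short-tail against total RNA gave 6 calls in control mice, 1 with no replicate block and 2 with the random block, and 5 in transgenic mice, 3 with the 60th percentile filter, 2 with no replicate block and 2 with the random block. Of all probe sets 42.5% passed in control mice, and 13.1% and 16.8% in those settings in turn. In transgenic mice 42.4% passed, and 52.4%, 14.3% and 18.3% in turn. Both Cpeb counts rose with quantile normalization again (35.3% and 34.7% of all) and with median centring (42% and 43.1%). In control mice both settings added Cpeb4 1420617 and Cpeb2 1443017. The former also added Cpeb2 1458518 and ended the Cpeb1 call. In transgenic mice both added Cpeb3 1455372 and Cpeb2 1458518. Long-tail against short-tail gave 7 in control mice, 4 with the 60th percentile filter and 4 to 8 with 1 mouse left out (4 without control mouse 1). Of all probe sets 54.9% passed there and 63.3% with that filter. With 1 mouse left out 37.1% to 52.2% did, and 39.9% without control mouse 1. In transgenic mice long-tail against short-tail gave 3, 1 with the 60th percentile filter, 5 with no replicate block, 7 with the random block, 6 with the own spread and 0 to 7 with 1 mouse left out (7 without control mouse 1, 0 without transgenic mouse 1 or 2). Of all probe sets 24.9% passed there, and 25.6%, 32.4%, 37.3% and 41.6% in the settings before the mice left out. Without control mouse 1 the share was 41.1%, and without transgenic mouse 1 or 2 it was 0%. The filters remove members, since 7 of 10 probe sets pass the 40th and 5 the 60th percentile; the cause of the other changes was not tested. Genotype counts stayed at 0 in every alternative run, the replicate block by number across genotypes included, except 1 for the long-tail against short-tail difference without control mouse 2 (Cpeb2 1458518), so 0 to 1. Same-numbered mice of the 2 genotypes correlated between -0.235 and 0.265, and their numbers do not pair them. The 27 tests between probe sets gave 0 under each alternative, and with 5 mice none can pass. Of 4524 single values under an alternative 215 changed sign. Among the 215, 2 reversed with a side past the threshold, both for long-tail against short-tail in control mice with quantile normalization again (Cpsf1 from -0.383 to 0.026, Cpsf4 from -0.054 to 0.315). The rest had neither side past the threshold. Over all probe sets, the share higher among those called moved from 53.0% to 67.2% for short-tail against total RNA in control mice with median centring and from 56.5% to 41.9% for long-tail against short-tail, where the median of all moved from 0.14 to 0.01. For long-tail against total RNA it moved from 35.3% to 47.7% with quantile normalization again and to 25.2% with the 60th percentile filter, which also gave 72.6% for short-tail against total RNA and 31.2% for long-tail against short-tail in control mice. Signal limits 1455372, 1458518 and 1420617, which exceeded the brightest nonspecific control on 5 or 6 of 18 arrays. It also limits Cpeb2 1434272 and 1443017, which did so on 8 of 18 arrays and on 0 of 6 total RNA arrays.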
